A study of Mus musculus with 12 samples.

Results

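The TNF superfamily genes described here are 10 named genes of the mouse, of 20776 genes in each count table: the ligand genes Tnf and Tnfsf9, the receptor genes Tnfrsf1a, Tnfrsf1b, Fas, Ltbr, Cd40 and Tnfrsf12a, and the genes Traf1 and Birc3, whose products sit beneath these receptors. They were chosen by name, as a set of ligands, receptors and adaptors of TNF signalling, with earlier results of these data known. All 10 had reads in all 12 libraries. RNA was sequenced from cortex of Sema4B+/- and Sema4B-/- mice 12 h after a cortical injury, from a square of 3 by 3 mm cut out around the lesion. Dissociated cells were sorted by immunopanning, that is, by letting them stick to antibody-coated dishes: cells held by an ACSA-2 dish made the astrocyte fraction, and cells held by a dish with secondary antibody only and by a CD45 dish made the immune fraction. The 4 groups were thus the immune fraction of Sema4B+/- mice, the immune fraction of Sema4B-/- mice, the astrocyte fraction of Sema4B+/- mice and the astrocyte fraction of Sema4B-/- mice, with 3 libraries in each.

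All 12 libraries came from injured tissue, and no uninjured or wild-type samples were analysed here, so the values show neither a response to injury nor a difference from wild type. The comparison animals were heterozygous and carried 1 altered Sema4b copy themselves. Age, sex, strain and the nature of the Sema4b allele were not given in the labels used here. The labels do not tie the 3 libraries of a group to different mice, so a p-value reflects how much these libraries varied, which may be technical. Libraries are named below by the numbers in the heads of the table columns, 1, 3 and 5 (heterozygous) and 7, 9 and 11 (knockout) in the immune fraction, and 2, 4 and 6 (heterozygous) and 8, 10 and 12 (knockout) in the astrocyte fraction.

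As background, TNF is made as a trimer on the surface of activated macrophages, microglia and other leukocytes and is shed by the protease ADAM17. It binds TNFR1 (Tnfrsf1a), which most cell types carry and whose tail holds a death domain, and TNFR2 (Tnfrsf1b), which is most prominent on myeloid and other immune cells and binds TRAF2. Both receptors can recruit TRAF and cIAP proteins and activate NF-kappaB, whose targets include genes of the same circuit, such as Traf1, Birc3, Tnfaip3 and Tnf itself. In injured brain tissue, TNF is among the early cytokines, and microglia are known as a source of it.

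Total counts ran from 13530229 to 15993564 reads in the astrocyte fraction and from 11111965 to 15135960 in the immune fraction. Levels are given in CPM, reads per 1000000 of the library total after TMM scaling, a method that sets the libraries on a common scale, and 3 reads corresponded to 0.174 to 0.255 CPM. The fraction labels held against defining markers. The summed level of 12 microglia markers was 5339 to 12583 CPM in immune and 324 to 622 CPM in astrocyte libraries, and that of 12 astrocyte markers was 733 to 1667 and 36086 to 53694 CPM. Neuron markers were present in both, at 2441 to 7395 CPM in immune and 1739 to 3467 CPM in astrocyte libraries. Endothelial markers (9 of 10) and oligodendrocyte markers (10 of 10) were higher in the astrocyte fraction of heterozygotes. Summed neutrophil markers were 581 to 2607 CPM in immune and 14.6 to 34.3 CPM in astrocyte libraries. Summed mural markers were 24.7 to 476 and 712 to 1582 CPM in the same order. Where levels in astrocytes are given below, the bulk astrocyte fraction is meant, with the other cells that it held. The targeted gene, Sema4b, stood at 6.06 to 8.83 CPM in heterozygous and 1.16 to 5.38 CPM in knockout immune libraries, and at 61.0 to 111 and 27.7 to 58.3 CPM in astrocyte libraries. Every knockout library was below every heterozygous one in both fractions, but reads remained and the difference did not pass (edgeR adjusted p = 0.270 and 0.930).

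Tnf (ENSMUSG00000024401, GRCm38 chromosome 17, 35199381 to 35202007, minus strand), the gene of the founding cytokine of the family, was one of the most abundant messages of the immune fraction. It took 0.0773 to 0.330% of all reads there and ranked between 17 and 110 by read count among all genes, against ranks of 4186 to 10519 in the astrocyte libraries. Heterozygous immune libraries 1, 3 and 5 had 3563, 1418 and 2232 CPM, and knockout libraries 7, 9 and 11 had 692, 2333 and 826 CPM. Library 9 lay within the heterozygous range and the other two knockout libraries lay below it, so the groups overlapped. In the astrocyte fraction, heterozygous libraries 2, 4 and 6 had 31.2, 18.0 and 52.7 CPM and knockout libraries 8, 10 and 12 had 24.7, 8.77 and 24.3 CPM, again overlapping. All immune values were far above all astrocyte values. Group means were 2404 ± 1082 and 1284 ± 911 CPM (SD, n = 3) in immune heterozygotes and knockouts, and 33.98 ± 17.5 and 19.3 ± 9.08 CPM in astrocytes.

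The 250 bases before the RefSeq start of Tnf (GRCm38.p6) are shown because Tnf stood apart from the other members in its immune level. They are set beside those of the TNF receptor genes Tnfrsf1a, found in both fractions, and Tnfrsf1b, mostly immune, and of Tnfrsf12a, the receptor gene with the most box motifs. Bases are in lower case, 5′ to 3′ on the strand of the gene, and capitals mark matches to the box motif TATAAA, which binds the general factor TBP, and to the box motif GGGCGG, which binds factors of the Sp family, each searched on both strands.
Tnf, chr17:35202008-35202257, minus strand: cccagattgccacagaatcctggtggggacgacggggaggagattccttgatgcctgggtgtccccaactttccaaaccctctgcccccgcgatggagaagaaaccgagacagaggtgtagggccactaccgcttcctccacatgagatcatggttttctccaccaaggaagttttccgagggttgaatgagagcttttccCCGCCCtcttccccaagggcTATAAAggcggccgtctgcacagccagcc
Tnfrsf1a, chr6:125349473-125349722, plus strand: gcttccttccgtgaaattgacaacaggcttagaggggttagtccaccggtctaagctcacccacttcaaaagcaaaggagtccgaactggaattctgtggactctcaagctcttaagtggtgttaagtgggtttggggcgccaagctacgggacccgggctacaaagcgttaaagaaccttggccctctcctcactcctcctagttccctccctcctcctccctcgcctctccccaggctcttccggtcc
Tnfrsf1b, chr4:145246871-145247120, minus strand: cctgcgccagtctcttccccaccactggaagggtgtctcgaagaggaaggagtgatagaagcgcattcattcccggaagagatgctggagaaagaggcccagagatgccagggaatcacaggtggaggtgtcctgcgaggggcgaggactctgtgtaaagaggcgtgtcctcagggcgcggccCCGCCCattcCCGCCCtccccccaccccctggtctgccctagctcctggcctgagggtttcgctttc
Tnfrsf12a, chr17:23677450-23677699, minus strand: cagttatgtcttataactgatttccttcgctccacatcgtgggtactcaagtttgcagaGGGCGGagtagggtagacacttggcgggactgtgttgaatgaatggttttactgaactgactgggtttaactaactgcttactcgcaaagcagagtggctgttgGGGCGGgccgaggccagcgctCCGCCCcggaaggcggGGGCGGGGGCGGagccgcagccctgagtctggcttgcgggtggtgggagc

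RefSeq promoters were matched for 8 of the 10 members, all but Cd40 and Tnfsf9. Tnf was the only member of the 8 with TATAAA in the window, beginning 29 bases upstream of the start, where 12.4% of 32851 mouse promoters of the same length held a match. GGGCGG was found once in the windows of Tnf and Fas, at 2 places in those of Tnfrsf1b and Ltbr and at 5 in that of Tnfrsf12a, and in none of Tnfrsf1a, Traf1 and Birc3, against 32.7% of all promoters with a match. The kappaB-like motif GGNNTTTCC, also searched on both strands, was in none of the 8 windows and in 4.93% of all promoters. No match of one motif overlapped a match of another. These matches describe letters in a short window and say nothing of which factors bound there.

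Tnfsf9 (ENSMUSG00000035678, GRCm38 chromosome 17, 57105325 to 57107757, plus strand), which encodes the 4-1BB ligand of activated antigen-presenting cells, was the other ligand gene with a high immune level. Its values were 416, 293 and 335 CPM in heterozygous libraries 1, 3 and 5 and 146, 314 and 112 CPM in knockout libraries 7, 9 and 11. As for Tnf, libraries 7 and 11 were the low ones and library 9 lay among the heterozygotes. Astrocyte libraries had 8.09, 5.95 and 6.55 CPM (2, 4 and 6) and 5.88, 5.25 and 3.92 CPM (8, 10 and 12), and every knockout value there was below every heterozygous value. The means were 348 ± 62.1, 191 ± 108, 6.86 ± 1.10 and 5.02 ± 0.999 CPM in the order of immune heterozygote, immune knockout, astrocyte heterozygote and astrocyte knockout. The exons of Tnfsf9 overlap the antisense gene model Gm11110, and since no source used here says that counting used strand, reads of the 2 cannot be told apart.

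**Figure D1:**
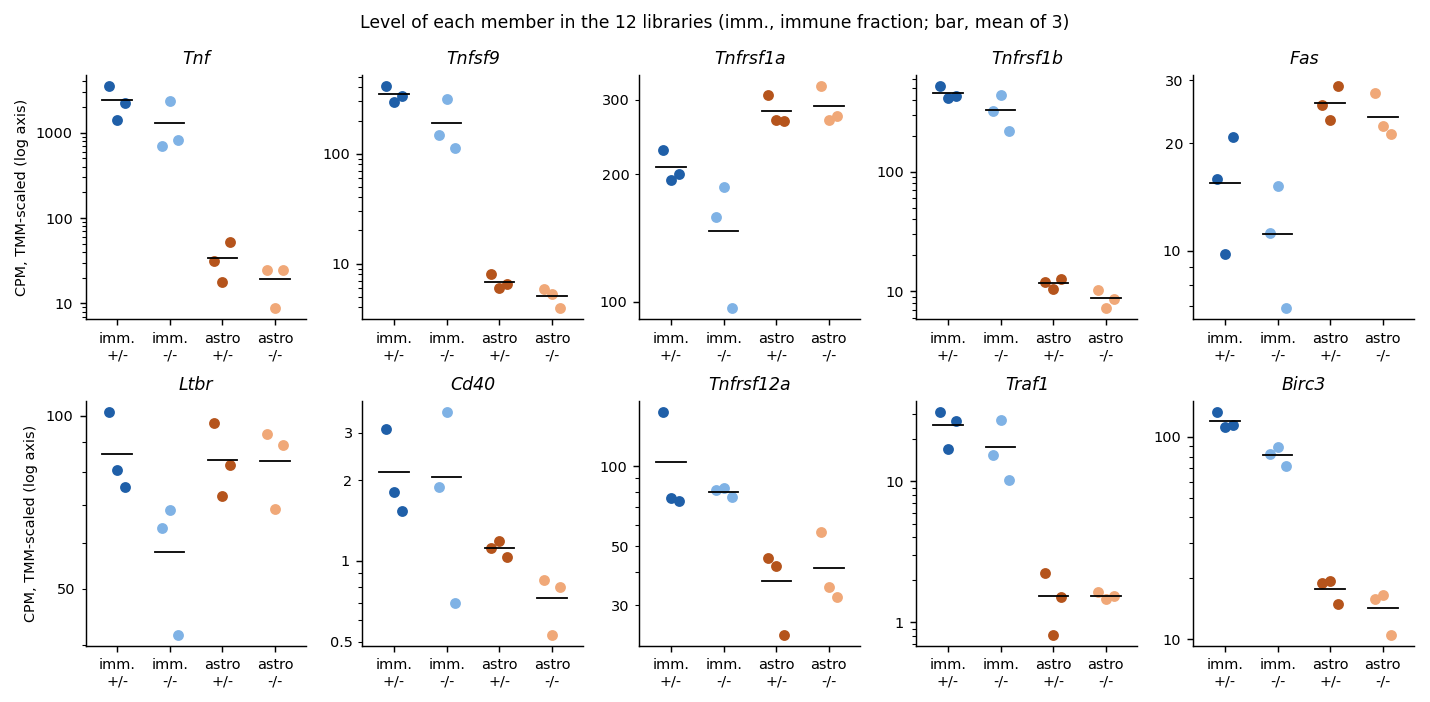
Level of each of the 10 members in CPM (log axis, its own range for each gene) in the 12 libraries, with points for libraries and bars for the mean of 3. Tnf, Tnfsf9, Tnfrsf1b, Tnfrsf12a, Traf1 and Birc3 sit higher in all 6 immune libraries than in all 6 astrocyte libraries, Tnfrsf1a and Fas sit lower, and Cd40 and Ltbr overlap, Ltbr with astrocyte values of 68.9 to 97.0 CPM. The share of all genes that separate in this way was not computed.

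The 2 receptors of TNF were distributed differently. Tnfrsf1a (ENSMUSG00000030341, GRCm38 chromosome 6, 125349362 to 125362484, plus strand), the gene of TNFR1, had 308, 269 and 268 CPM in heterozygous and 324, 269 and 275 CPM in knockout astrocyte libraries. Immune libraries had 228, 194 and 200.1 CPM (heterozygous) and 159, 187 and 96.5 CPM (knockout), so the immune groups did not overlap with each other or with the astrocyte groups. Over the 6 astrocyte libraries its highest value was 1.21 times its lowest, the narrowest range of the 10 members in either fraction.

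Tnfrsf1b (ENSMUSG00000028599, GRCm38 chromosome 4, 145213463 to 145246870, minus strand), the gene of TNFR2, had 528, 418 and 432 CPM in heterozygous and 326, 440.2 and 219.8 CPM in knockout immune libraries. Library 11 was lowest and library 9 lay within the heterozygous range. In astrocyte libraries it had 11.9, 10.5 and 12.5 CPM and 10.3, 7.18 and 8.65 CPM in the same order of genotypes, with all knockout values below all heterozygous ones. Means were 459 ± 59.6, 329 ± 110.2, 11.7 ± 1.06 and 8.70 ± 1.55 CPM for Tnfrsf1b, and 208 ± 18.3, 147 ± 46.1, 281 ± 22.95 and 289 ± 30.1 CPM for Tnfrsf1a, in immune heterozygotes and knockouts and then astrocyte heterozygotes and knockouts.

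Divided by exonic length, the ratio of Tnfrsf1b to Tnfrsf1a was nearly the same in every immune library. It was 1.57, 1.46 and 1.47 in libraries 1, 3 and 5 and 1.39, 1.60 and 1.55 in libraries 7, 9 and 11, although each of these genes varied over the 6 libraries by 2.37 times (Tnfrsf1a) and 2.40 times (Tnfrsf1b). In astrocyte libraries the ratio was 0.0263, 0.0265 and 0.0318 in heterozygotes and 0.0215, 0.0181 and 0.0213 in knockouts. TNFR2 transcripts thus outnumbered TNFR1 transcripts per length in the immune fraction and were a small part of them in the astrocyte fraction, where microglia markers were also present at 377 to 519 CPM (heterozygous) and 324 to 622 CPM (knockout). Their part in the astrocyte values of Tnfrsf1b was not tested.

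Fas (ENSMUSG00000024778, GRCm38 chromosome 19, 34290666 to 34327772, plus strand), a death receptor gene, stood at 25.6, 23.1 and 28.9 CPM in heterozygous and 27.6, 22.3 and 21.2 CPM in knockout astrocyte libraries. In immune libraries it stood at 15.9, 9.82 and 20.8 and 11.2, 15.2 and 6.90 CPM, and all 6 of these were below all 6 astrocyte values. The genotypes overlapped in both fractions. Ltbr (ENSMUSG00000030339, GRCm38 chromosome 6, 125306571 to 125313885, minus strand), which encodes the lymphotoxin beta receptor, had 102, 80.5 and 75.3 CPM in heterozygous immune libraries and 63.8, 68.6 and 41.7 CPM in knockout ones. Those groups did not overlap, library 11 being lowest. Astrocyte libraries had 97.0, 72.7 and 82.1 and 93.0, 68.9 and 88.9 CPM, and these overlapped.

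Cd40 (ENSMUSG00000017652, GRCm38 chromosome 2, 165055627 to 165072948, plus strand), a costimulatory receptor gene of antigen-presenting cells, was barely detected, with 8 to 52 reads per library. Its levels were 3.11, 1.80 and 1.53 CPM in heterozygous and 1.89, 3.59 and 0.696 CPM in knockout immune libraries, where the knockouts held both the highest and the lowest value. Astrocyte libraries had 1.12, 1.19 and 1.03 CPM and 0.850, 0.532 and 0.799 CPM, each knockout value lying below each heterozygous one. Tnfrsf12a (ENSMUSG00000023905, GRCm38 chromosome 17, 23675445 to 23677468, minus strand), the gene of Fn14, a receptor for the ligand TWEAK that is known to be induced in injured tissue, had 160.0, 75.7 and 74.2 CPM in heterozygous immune libraries. Library 1 was far above the other two, and the knockout libraries were close together at 81.7, 82.7 and 76.4 CPM. In astrocyte libraries Tnfrsf12a had 45.3, 42.0 and 23.3 CPM (heterozygous) and 56.7, 35.2 and 32.1 CPM (knockout), all below every immune value, with the genotypes overlapping.

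The other two members act inside the cell. Traf1 (ENSMUSG00000026875, GRCm38 chromosome 2, 34941750 to 34961772, minus strand), an adaptor gene that NF-kappaB induces, had 31.1, 16.9 and 26.9 CPM in heterozygous and 15.5, 27.1 and 10.3 CPM in knockout immune libraries, against 2.24, 0.818 and 1.52 and 1.63, 1.46 and 1.53 CPM in astrocyte libraries. Genotypes overlapped in both fractions and the fractions did not. Birc3 (ENSMUSG00000032000, GRCm38 chromosome 9, 7848699 to 7873186, minus strand), the gene of the ubiquitin ligase cIAP2, which restrains cell death downstream of TNFR1, had 133, 112 and 114 CPM in heterozygous immune libraries and 82.2, 89.7 and 72.1 CPM in knockout ones. The 2 immune groups did not overlap. In astrocyte libraries Birc3 had 18.9, 19.5 and 14.95 CPM and 15.8, 16.5 and 10.5 CPM, overlapping between genotypes. Birc3 lies beside its near copy Birc2 on chromosome 9, so reads shared by the 2 genes may have been split or lost in counting.

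Between genes, levels can be set side by side only per length of exon. In immune heterozygotes Tnf led with 1467 ± 660.5 CPM per kilobase (SD, n = 3), followed by Tnfsf9 at 269.8 ± 48.1, Tnfrsf1b at 120.3 ± 15.6, Tnfrsf1a at 80.1 ± 7.06 and Tnfrsf12a at 53.5 ± 25.4 CPM per kilobase. Ltbr, Birc3 and Fas had 36.4 ± 5.90, 23.9 ± 2.31 and 7.52 ± 2.67 CPM per kilobase, and Traf1 and Cd40 were last with 2.83 ± 0.826 and 0.630 ± 0.247. In astrocyte heterozygotes the order was led by receptors. Tnfrsf1a had 109 ± 8.86 CPM per kilobase, Ltbr 35.7 ± 5.21, Tnf 20.7 ± 10.7, Tnfrsf12a 19.1 ± 6.15 and Fas 12.6 ± 1.41, and the other five were at or below 5.32 CPM per kilobase. Exonic length counts the exons of all annotated isoforms, which lowers the value of a gene with long alternative exons.

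The make-up of the family differed between the fractions. Shares were taken of the summed CPM per kilobase of 14 TNF superfamily ligand genes. Tnf made up 82.4 ± 4.14% in immune heterozygotes and 81.8 ± 4.12% in immune knockouts. In the astrocyte fraction it made up 39.7 ± 11.9% in heterozygotes and 25.6 ± 8.93% in knockouts. Tnfsf9 made up 16.4 ± 3.90% and 16.6 ± 3.61% of ligand transcripts in the immune and 10.9 ± 2.25% and 9.07 ± 2.59% in the astrocyte fraction. The astrocyte remainder was mostly Tnfsf12, the gene of TWEAK and ligand of the Tnfrsf12a product, with 35.9 ± 5.86% in heterozygotes and 53.1 ± 4.33% in knockouts. In the immune fraction Tnfsf12 was 0.451 ± 0.169% and 0.651 ± 0.214%. Its exons overlap a readthrough gene shared with Tnfsf13, so its counts are uncertain to that extent. Microglia markers were also present in the astrocyte libraries, at 324 to 622 CPM. The part of immune cells in the Tnf and Tnfsf9 shares of that fraction was not tested.

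Among 28 receptor genes, Tnfrsf1a held 38.4 ± 2.15% and 38.1 ± 2.33% of the astrocyte receptor transcripts per length in heterozygotes and knockouts, and 21.0 ± 1.35% and 19.97 ± 1.52% of the immune ones. Tnfrsf1b, with 31.4 ± 0.909% and 30.2 ± 2.83%, led the immune fraction and held 1.08 ± 0.0817% and 0.774 ± 0.0702% in astrocytes. Ltbr and Fas took larger shares in astrocytes, at 12.5 ± 0.538% and 4.45 ± 0.498% in heterozygotes, than in the immune fraction, at 9.48 ± 0.637% and 1.96 ± 0.727%, and Tnfrsf12a a smaller one, at 6.77 ± 2.23% against 13.5 ± 4.19%. Second in the astrocyte fraction was Tnfrsf19, which encodes TROY, with 21.0 ± 5.14% in heterozygotes and 0.757 ± 0.161% in immune heterozygotes. These shares sum to a fixed whole, so a larger share of one gene lowers the others.

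**Figure D2:**
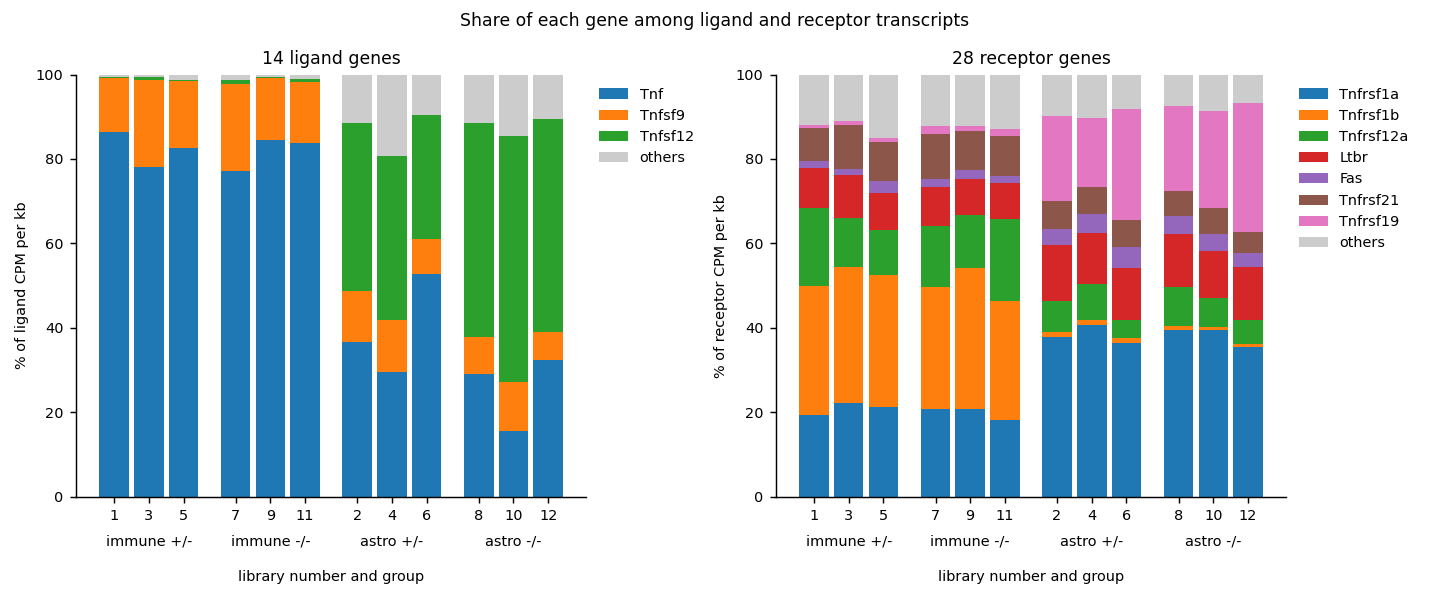
Share of each gene, in percent, of the summed CPM per kilobase of 14 ligand genes (left) and 28 receptor genes (right), with a stacked bar for each of the 12 libraries. Tnf fills 77.1 to 86.4% of every immune ligand bar, and Tnfrsf1b, at 31.4 ± 0.909% in immune heterozygotes, nearly vanishes from the astrocyte receptor bars.

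In heterozygotes, 6 of the 10 members were lower in the astrocyte than in the immune fraction, 1 was higher, and 3 did not pass, at an adjusted p of 0.05 by edgeR's quasi-likelihood test with Benjamini-Hochberg adjustment over all 16880 genes tested. The fractions are different cells, and of all genes tested 30.3% were lower and 30.0% higher. The median log2 difference of the members was -2.12, where that of all genes was -0.041. The ligand genes had the largest differences. Tnf was 70.7-fold lower in astrocytes (log2 difference -6.14 ± 0.66, SE; edgeR adjusted p = 2.65e-06), and Tnfsf9 50.7-fold lower (-5.66 ± 0.38; edgeR adjusted p = 3.63e-08). Tnfrsf1b, at 39.4-fold (-5.30 ± 0.27; edgeR adjusted p = 8.31e-09), came next, with the NF-kappaB-induced genes Traf1 (-4.03 ± 0.41; 1.75e-06) and Birc3 (-2.75 ± 0.19; 4.25e-08) and the Fn14 gene Tnfrsf12a (-1.49 ± 0.32; 0.00127) behind it. In each of these 6 genes, all 3 heterozygous immune libraries were above all 3 heterozygous astrocyte libraries. The 6 were picked by this same comparison, so the separation adds no support. The share of all genes separated in this way was not computed.

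Fas was the member higher in the astrocyte fraction of heterozygotes, by 1.67-fold (0.74 ± 0.29, edgeR adjusted p = 0.0374). Without immune library 1 its edgeR adjusted p was 0.0734, without immune library 3 0.142, and without astrocyte library 2 or 6 0.0693 or 0.105, so the call rests on each of them. Tnfrsf1a (0.44 ± 0.21; edgeR adjusted p = 0.0850) and Cd40 (-0.94 ± 0.50; 0.117) did not pass, but both passed when knockout immune library 11 was left out of the shared spread, at edgeR adjusted p = 0.0150 and 0.0421. By limma-voom, Tnfrsf1a passed as well (log2 difference 0.49, adjusted p = 0.0130). Ltbr had a difference of -0.032 ± 0.20 (edgeR adjusted p = 0.903). Mean summed mural markers were also higher in the astrocyte than in the immune fraction of heterozygotes, at 1315 against 81.5 CPM. Endothelial markers were at 437 against 67.2 CPM and oligodendrocyte markers at 3837 against 508 CPM. The part of these cells in genes higher in that fraction was not tested.

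In knockouts, 7 members were lower and 3 higher in the astrocyte fraction, against 30.7% and 29.0% of all genes. The differences of Tnf (-6.06 ± 0.66; edgeR adjusted p = 3.61e-06), Tnfsf9 (-5.25 ± 0.37; 8.44e-08), Tnfrsf1b (-5.24 ± 0.27; 1.06e-08), Traf1 (-3.51 ± 0.41; 6.72e-06) and Birc3 (-2.51 ± 0.19; 1.15e-07) stood beside those of the heterozygotes. Tnfrsf1a (0.97 ± 0.21; edgeR adjusted p = 0.00137) and Fas (1.10 ± 0.29; 0.00511) were higher in knockout astrocytes. Ltbr was also higher (0.53 ± 0.20; edgeR adjusted p = 0.0378), and Tnfrsf12a (-0.96 ± 0.32; 0.0193) and Cd40 (-1.48 ± 0.51; 0.0234) were lower.

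The calls of Ltbr, Tnfrsf12a and Cd40 in knockouts depended on single libraries. For Ltbr the edgeR adjusted p was 0.132 without immune library 11, 0.122 without astrocyte library 8, 0.0999 without astrocyte library 12, 0.0547 without astrocyte library 4, and 0.0723 when genes under a mean of 5 CPM were dropped. Tnfrsf12a stood at 0.0608 without astrocyte library 10 and 0.0802 without library 12 by the same test. Cd40 stood at 0.163 without immune library 9, where its log2 difference was -0.82, at 0.0757 without astrocyte library 10 and at 0.0507 without library 12.

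**Figure D3:**
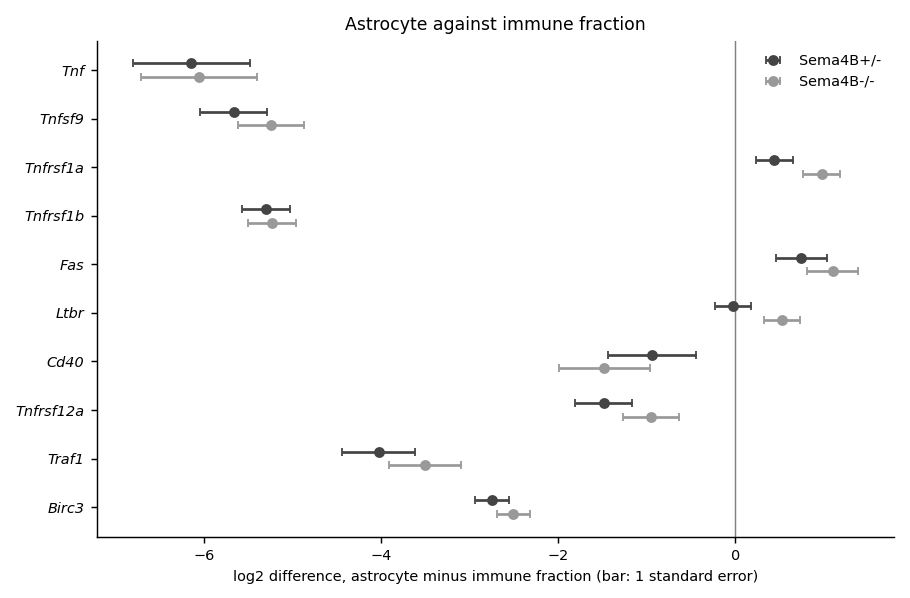
Log2 difference of astrocyte minus immune fraction for each member, in Sema4B+/- (dark) and Sema4B-/- (light) libraries, with bars of 1 standard error. Tnf, Tnfsf9 and Tnfrsf1b lie at -5.24 or lower in both genotypes, and Fas and Tnfrsf1a lie to the right of 0.

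Set against the microglia markers of the same library, Tnf reads were fewer in the astrocyte fraction as well. Immune libraries held 283, 147 and 210.4 Tnf reads per 1000 reads of the 12 microglia markers in heterozygotes and 84.6, 283 and 155 in knockouts. Astrocyte libraries held 65.9, 47.8 and 102 in heterozygotes and 44.9, 27.1 and 39.1 in knockouts. The 3 knockout astrocyte values lay below all 3 heterozygous ones and below every immune value, and of the heterozygous astrocyte libraries only library 6 exceeded an immune value, that of knockout library 7. Group means were 214 ± 67.9, 174 ± 101, 71.7 ± 27.3 and 37.0 ± 9.09 per 1000, in the order used above. The base was the microglia markers only, and ratios to other myeloid lists were not computed. Mean summed neutrophil markers were 1916 CPM in immune and 28.9 CPM in astrocyte heterozygotes. In the same order, border macrophage markers were at 460 and 4.03 CPM and monocyte markers at 329 and 136 CPM. The part of these cells in the Tnf values was not tested. In bulk samples, fewer cells of a type and less RNA per cell cannot be told apart.

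The genotype comparison asked whether the Sema4B-/- state goes with altered TNF family transcripts. In the immune fraction, 0 of the 10 members passed in either direction, and neither did any other gene: 0% of 15648 genes were called lower and 0% higher by edgeR, whose lowest adjusted p was 0.227. With TMM scaling all 10 members had a negative log2 fold change of knockout over heterozygote, a sign held by 50.4% of all genes, and 8 turned positive when libraries were scaled to microglia markers. With TMM scaling their median was -0.44 where that of all genes was -0.0037. At an unadjusted p of 0.05, 3 members (Birc3, Ltbr and Tnfsf9) were lower and 0 higher, against 4.90% and 9.69% of all genes. The 2 genotypes did not overlap in 3 members (Birc3, Ltbr and Tnfrsf1a), all lower in knockouts, as was the case for 11.2% of all genes. With DESeq2, 378 genes passed as higher and 68 as lower, and with limma-voom 0 did; no member was among them. By each of these 2 tools 9 of 10 members were negative, as were 8 of 10 by edgeR without heterozygous library 1.

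Among the ligands, Tnf was at -0.83 ± 0.48 (log2 fold change and SE; edgeR adjusted p = 0.436) and Tnfsf9 at -0.80 ± 0.34 (0.329). In the authors' deposited table the values were -0.822 with an adjusted p of 0.410 for Tnf and -0.793 with 0.255 for Tnfsf9. The TNF receptor genes had similar values, -0.43 ± 0.23 for Tnfrsf1a (edgeR adjusted p = 0.408) and -0.42 ± 0.26 for Tnfrsf1b (0.458). Ltbr had -0.50 ± 0.20 (edgeR adjusted p = 0.309), Fas -0.42 ± 0.34 (0.556), Tnfrsf12a -0.28 ± 0.27 (0.617) and Cd40 -0.0082 ± 0.53 (0.995). Birc3, with the lowest p of the members, had -0.49 ± 0.16 (edgeR adjusted p = 0.246), and Traf1 -0.44 ± 0.34 (0.545).

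These values were carried unevenly by the libraries. Knockout library 11 was the lowest of the 6 for 8 of the 10 members, and heterozygous library 1 was the highest for 8 of 10. The share of all genes with these extremes was not computed. Over all genes, library 11 differed from libraries 7 and 9 by a mean chi-square per gene of 79.9 and 64.4. Libraries 7 and 9 differed from each other by 34.3. Relative to the heterozygous mean, Tnf stood at -1.80, -0.043 and -1.54 (log2) in knockout libraries 7, 9 and 11. The number of members with an unadjusted p under 0.05 was 7 without knockout library 9 and 1 without heterozygous library 1, heterozygous library 3 or knockout library 11. It was 5 in 1 fit of all 12 libraries, where 1771 of 16880 genes were lower at that p. By limma-voom it was 1, with 787 of 15648 genes lower. The members' median was -0.66 without library 9 and -0.24 without library 11.

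Markers of myeloid cells shared the negative sign that the members had with TMM scaling. The 12 microglia markers were all negative in knockouts, with a median log2 fold change of -0.61 and none past the threshold, and the same sign was held by all 10 markers of border macrophages (-0.62), all 10 of monocytes (-0.79) and all 11 of neutrophils (-0.83). Neuron markers were positive in 12 of 12 genes (0.65), and the medians of endothelial and mural markers were 0.87 and 1.49. For these 2 lists the knockout libraries differed: relative to the heterozygous mean, summed mural markers were at 1.08, 2.55 and -1.72 (log2) in libraries 7, 9 and 11 and summed endothelial markers at 0.52, 1.34 and -1.07, and library 11 lay below every heterozygous library in both. The summed microglia markers were 12583, 9616 and 10612 CPM in heterozygous libraries 1, 3 and 5 and 8178, 8249 and 5339 CPM in knockout libraries 7, 9 and 11, without overlap. Summed neutrophil markers ran over 1312 to 2607 CPM in heterozygotes and 581 to 1533 CPM in knockouts, and summed neuron markers over 2441 to 4333 and 4230.2 to 7395 CPM. Library 11, lowest for most members, was also lowest in microglia and neutrophil markers and highest in neuron markers. In libraries 7 and 9 not every member followed the microglia markers. Relative to the heterozygous mean, these markers were at -0.42 and -0.41 (log2) there. Tnf was at -1.80 and -0.043, Tnfsf9 at -1.25 and -0.15, Birc3 at -0.54 and -0.42 and Ltbr at -0.43 and -0.32. Summed neutrophil markers were at -0.83 and -0.32, monocyte markers at -1.53 and -0.15 and border macrophage markers at -0.43 and -0.45.

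When the libraries were scaled to the microglia markers in place of all genes, the median of all genes moved to 0.56, and the members' median became 0.072. Only Tnf (-0.30) and Tnfsf9 (-0.30) kept a negative value, and the other 8 members turned positive, Birc3 to 0.063 and Ltbr to 0.023. On that scale 0 members had an unadjusted p under 0.05, while 5129 of all genes did with a higher and 12 with a lower value, against 1517 and 767 with TMM scaling. The part of the cell mix in these values was not tested.

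**Figure D4:**
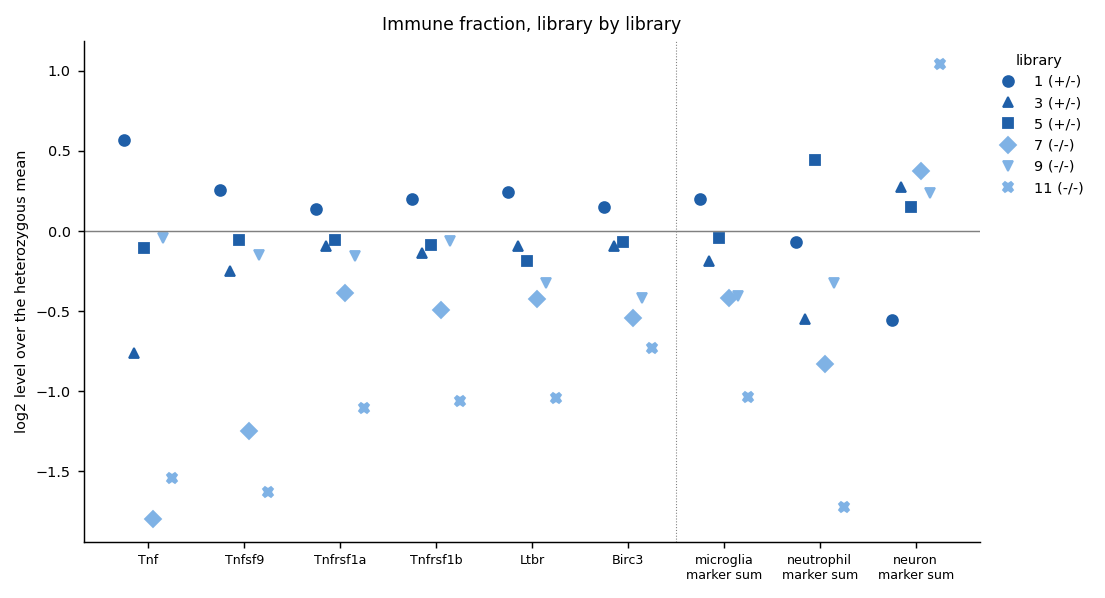
Log2 level of 6 members and of 3 summed marker lists in each immune library, relative to the mean of the heterozygous libraries (dark, 1, 3 and 5; light, knockout 7, 9 and 11). Library 11 lies at -1.06 for Tnfrsf1b and -1.03 for the microglia markers, while library 9 lies near the heterozygotes for Tnf (-0.043).

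In the astrocyte fraction, 0 of 10 members passed and 0% of 15468 genes were called lower and 0% higher by edgeR, with a lowest adjusted p of 0.930. DESeq2 called 1 gene, which was not a member. Of the 10 members, 7 had a negative fold change, against 49.3% of all genes, and the members' median was -0.21. At an unadjusted p of 0.05, 1 member (Tnfrsf1b) was lower and 0 were higher, where 2.13% and 1.70% of all genes were. That number was 0 by DESeq2, in 1 fit of all 12 libraries, after scaling to astrocyte markers and without any 1 of astrocyte libraries 2, 6, 10 and 12, and 2 by limma-voom and without library 4. The genotypes did not overlap in Tnfrsf1b, Tnfsf9 and Cd40, each lower in knockouts, which held for 4.89% of all genes.

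For Tnf the value was -0.83 ± 0.44 (log2 fold change; edgeR adjusted p = 0.930), and Tnfrsf1b and Tnfsf9, also mainly immune, had -0.42 ± 0.18 (Tnfrsf1b, 0.930) and -0.44 ± 0.23 (Tnfsf9, 0.930). Cd40 had -0.61 ± 0.32 from 8 to 16 reads per library, and Birc3 -0.30 ± 0.21. The values of the other receptor genes were 0.045 ± 0.12 for Tnfrsf1a, -0.0032 ± 0.14 for Ltbr, -0.12 ± 0.15 for Fas and 0.17 ± 0.28 for Tnfrsf12a. Traf1 had 0.025 ± 0.37. The edgeR adjusted p was between 0.930 and 0.999 for all 10. Summed microglia markers in these libraries were 377 to 519 CPM in heterozygotes and 324 to 622 CPM in knockouts. Negative fold changes were held by 10 of 10 endothelial markers (median -0.25), 9 of 9 mural markers (-0.50) and 6 of 7 neutrophil markers (-0.36). Positive ones were held by 10 of 12 microglia markers (0.16) and 11 of 12 astrocyte markers (0.11), and 0 markers of these 5 lists passed. Summed mural markers were 944 to 1582 CPM in heterozygotes and 712 to 1218 CPM in knockouts, and summed endothelial markers 191 to 717 and 320.0 to 419 CPM. The part of these cells in the members' values was not tested.

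The difference between the genotype effects of the 2 fractions was tested directly as an interaction over all 12 libraries. By edgeR, 0 of 10 members passed, and neither did any gene, with 0% of 16880 genes in the positive and 0% in the negative direction (lowest adjusted p = 0.475), and DESeq2 called 3 genes, none a member. At an unadjusted p of 0.05 there were 0 members, against 4.06% of genes above and 6.32% below 0. That number was 3 without immune knockout library 9 and 1 without astrocyte library 2 or 10. For Tnf the difference of astrocyte minus immune effect was 0.084 ± 0.76. The widest were those of Ltbr (0.56 ± 0.29; edgeR adjusted p = 0.491) and Tnfrsf1a (0.53 ± 0.30; 0.509) relative to their errors.

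**Figure D5:**
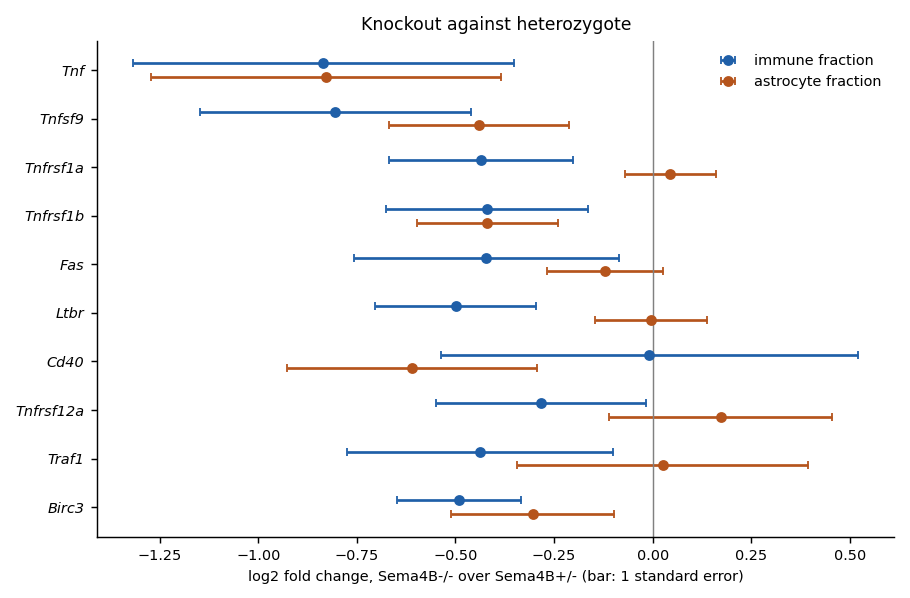
Log2 fold change of Sema4B-/- over Sema4B+/- for each member in the immune (blue) and the astrocyte fraction (orange), with bars of 1 standard error. With TMM scaling all 10 immune values lie at or below -0.0082 (8 turn positive when scaled to microglia markers), and Tnf lies at -0.83 and -0.83; none passed at an adjusted p of 0.05.

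Other genes of the pathway were described from 4 lists. Their counts between the fractions stand against 30.0% of all genes higher and 30.3% lower in heterozygous astrocytes, and 29.0% and 30.7% in knockouts. Of 16 other ligand genes, 12 were in the tables and 10 were tested between the fractions. In heterozygotes 6 were higher and 4 lower in astrocytes, and in knockouts 5 and 4. The 4 lower in heterozygotes were Tnfsf14 (log2 difference -5.57 ± 0.59), Ltb (-4.32 ± 0.63), Tnfsf18 (-2.94 ± 0.67) and Tnfsf13b (-2.34 ± 0.41). All 4 were under a mean of 5 CPM over the 12 libraries. Eda, the ectodysplasin gene, was higher in astrocyte than in immune heterozygotes, at an immune level of 0.711 ± 0.112 against 9.95 ± 1.11 CPM (log2 difference 3.79 ± 0.32; edgeR adjusted p = 2.98e-07), and so was Tnfsf12, at 10.9 ± 0.760 against 26.7 ± 4.85 CPM (1.30 ± 0.21; 9.73e-05). Tnfsf12 was thus higher in the fraction of heterozygotes where its receptor gene Tnfrsf12a was lower.

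Of 22 other receptor genes, 19 were tested between the fractions, and 6 were higher and 11 lower in heterozygous astrocytes (6 and 11 in knockouts). Tnfrsf19 had 13.5 ± 1.08 CPM in immune and 284 ± 80.1 CPM in astrocyte heterozygotes (4.39 ± 0.29; edgeR adjusted p = 3.16e-08), and Ngfr, the p75 neurotrophin receptor gene, differed by 5.35 ± 0.39 (8.32e-08). In the opposite direction were Tnfrsf11a, the RANK gene, with 62.6 ± 8.87 and 3.64 ± 0.125 CPM (-4.10 ± 0.24; edgeR adjusted p = 1.54e-08), Tnfrsf13b, the TACI gene (-4.01 ± 0.31), and Tnfrsf23, one of a cluster of near copies (-3.78 ± 0.51).

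Of 30 genes of receptor adaptors and regulators, all tested, 5 were higher and 17 lower in heterozygous astrocytes (6 and 16 in knockouts). Tnfaip3, which encodes A20, the ubiquitin-editing brake on this pathway, stood at 1494 ± 252 CPM in heterozygous immune libraries against 49.6 ± 4.92 CPM in astrocyte ones (-4.91 ± 0.36; edgeR adjusted p = 7.96e-08). Adam17, the gene of the TNF-shedding protease, had 171 ± 34.3 and 35.1 ± 5.03 CPM (-2.29 ± 0.22; 1.03e-06), and Casp8, the initiator caspase gene of death receptors, differed by -2.47 ± 0.23. Higher in astrocytes were the adaptor gene Traf4 (1.54 ± 0.20), Tab1 (0.99 ± 0.13), whose product binds the kinase TAK1, and Birc2 (0.66 ± 0.17), the gene of cIAP1, while its near copy Birc3 was lower. In knockouts Tank (1.20 ± 0.17), a TRAF-binding regulator gene, and Ripk3 (-3.55 ± 0.38), the necroptosis kinase gene, were also among the 3 with the lowest p in their direction.

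Of 21 TNF-inducible genes measured, 16 were lower and 1 higher in heterozygous astrocytes (16 and 3 in knockouts). The adhesion gene Icam1 (-2.91 ± 0.20) and the NF-kappaB regulator genes Nfkbiz (-3.12 ± 0.23) and Nfkbie (-3.94 ± 0.30) had the lowest p. In knockouts the siderophore-binding gene Lcn2 (1.01 ± 0.37; edgeR adjusted p = 0.0318) and the adhesion gene Vcam1 (0.79 ± 0.31; 0.0411) were higher in astrocytes, but without immune library 11 they stood at 0.0688 and 0.113. Lcn2 also lost its call without immune library 7 and astrocyte libraries 8 and 12, and Vcam1 without immune library 9 and astrocyte libraries 2, 4, 8 and 12 or when genes under a mean of 5 CPM were dropped.

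Between the genotypes, 0 genes of the 4 lists passed by edgeR in either fraction. At an unadjusted p under 0.05 in the immune fraction, 1 ligand, 3 receptors, 3 adaptors and 3 inducible genes were lower and 2 receptors higher, and in the astrocyte fraction 1 ligand, 1 adaptor and 1 inducible gene were lower and 1 ligand and 1 adaptor higher. Of all genes, 4.90% were lower and 9.69% higher at that p in the immune fraction, and 2.13% and 1.70% in the astrocyte fraction. In the immune fraction negative values were held by 6 of 7 other ligands (median log2 fold change -0.32), 9 of 17 other receptors (-0.040), 25 of 30 adaptors and regulators (-0.17) and 17 of 20 inducible genes (-0.46), against 50.4% of all genes. Among genes with a mean of at least 5 CPM over all 12 libraries, the lowest p in each list belonged to Eda (0.93 ± 0.42) and Tnfsf12 (-0.39 ± 0.24), to Tnfrsf19 (0.64 ± 0.24) and Tnfrsf11a (-0.57 ± 0.22), to Tnfaip3 (-1.05 ± 0.35) and Cflar (-0.59 ± 0.23), the gene of the caspase-8 inhibitor c-FLIP, and to Bcl3 (-0.45 ± 0.18) and Nfkbiz (-0.61 ± 0.25). Tnfaip3 had 1494 ± 252 CPM in heterozygous and 692 ± 372 CPM in knockout libraries, with an edgeR adjusted p of 0.252, and passed by DESeq2 (adjusted p = 0.0448). Eda reached that mean through the astrocyte libraries, and had only 0.711 ± 0.112 CPM in immune heterozygotes and 1.31 ± 0.562 CPM in immune knockouts. Under that mean, Tnfsf14 (-1.13 ± 0.41) and Tnfrsf26 (-1.19 ± 0.41) had lower p than the genes named from their lists. Neither of them passed (edgeR adjusted p = 0.272 and 0.261). On the microglia-marker scale the values of Tnfsf12 and Bcl3 turned positive. The list counts and medians above are from TMM scaling, with which all 12 microglia markers were negative too (median -0.61). They were not computed on the microglia-marker scale, where the median of all genes was 0.56.

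In the astrocyte fraction, 4 of 7 other ligands, 9 of 14 other receptors, 19 of 30 adaptors and regulators and 17 of 21 inducible genes were negative, the last with a median of -0.28, where 49.3% of all genes were. The named genes were Tnfsf12 (0.40 ± 0.16) and Eda (-0.25 ± 0.19), Tnfrsf11a (-0.44 ± 0.24) and Ngfr (-0.37 ± 0.29), Tank (0.32 ± 0.11) and Tnfaip3 (-0.42 ± 0.16), and Nfkb2 (-0.40 ± 0.17) and Icam1 (-0.34 ± 0.16). Of these, Tnfrsf11a met the minimum through the immune libraries, and had 3.64 ± 0.125 CPM in astrocyte heterozygotes and 2.66 ± 0.542 CPM in astrocyte knockouts. Under the minimum mean of 5 CPM, Tnfsf10 (-1.17 ± 0.42) and Tnfrsf18 (-0.75 ± 0.36) had lower p than the genes named from their lists. Neither of them passed. In the test of the difference between fractions, Tnfsf12 had 0.85 ± 0.29 (edgeR adjusted p = 0.475), from fold changes of -0.39 in the immune and 0.40 in the astrocyte fraction. The other genes with low p in that test were Eda (-1.12 ± 0.44), Tank (0.59 ± 0.24), Cflar (0.75 ± 0.35), Relt (0.47 ± 0.25), Ngfr (-0.88 ± 0.54), Nfkbia (0.96 ± 0.52) and Mmp9 (1.11 ± 0.78), and none of them passed. Under the minimum mean, the receptor gene Tnfrsf11b (-1.62 ± 0.49) had a lower p than Relt and Ngfr and did not pass either.

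For each member, the genes with the most similar pattern over the 12 libraries were found by the root mean square difference of centred log2 levels among 12029 genes. Tnf lay nearest to Osm (0.443), Lilr4b (0.446) and Gpr183 (0.491), in log2 units. These distances were the widest of any member, with Tnfsf9 next, near Tnfrsf1b (0.268), Slfn2 (0.314) and Adam8 (0.326), so another member was its closest gene. Tnfrsf1b lay nearest to Slfn2 (0.165), Csf2rb2 (0.166) and Itgb2 (0.217), and Tnfrsf1a to Dhx40 (0.100), Lmf2 (0.124) and Plcb3 (0.129). For Ltbr the genes were Dnajc1 (0.108), Rassf2 (0.124) and Brip1os (0.125), for Fas Pdlim2 (0.164), B3galt5 (0.170) and Kmt5c (0.179), for Cd40 Tmem168 (0.261), Ifih1 (0.263) and Actr5 (0.264), and for Tnfrsf12a Tubb6 (0.180), Maff (0.185) and Srm (0.239). Traf1 was followed most closely by Tmem106a (0.199), Ripk3 (0.210) and Slc16a6 (0.217), and Birc3 by P2ry2 (0.179), Icam1 (0.181) and E230029C05Rik (0.184). The libraries of a fraction share their cells, so a similar difference between fractions is enough to bring 2 genes near.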

How the data were processed

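RNA-seq counts per gene were deposited by the authors in 2 tables, one per fraction. Reads had been processed with cutadapt, STAR, HTSeq and DESeq2 against build GRCm38, per the submitters' processing notes. Tool versions and the annotation were not given in the sources used here, nor whether counting used strand. Per the file headers, the deposited count columns were raw counts, and these were analysed. The log2 fold changes of knockout over heterozygote and the p-values in the same files are the authors' own and were copied where named. The 12 columns of normalized counts were not used here.

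The numbers in the table columns follow another scheme than the sample titles, so columns were assigned to groups, not to individual samples. Mean chi-square per gene between libraries of a group was 10.9 to 79.9, so none was a repeat of another within sampling noise.

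Genes were kept with edgeR 4.0.16 (filterByExpr, count minimum 10, total minimum 15) and tested by its quasi-likelihood test with TMM scaling and Benjamini-Hochberg adjustment over all genes tested, threshold 0.05, in R 4.3.3. Genotypes were compared within the 6 libraries of a fraction, and fractions and the difference of genotype effects in 1 fit of 12 libraries. The standard error is the log2 value divided by the root of the F statistic. Alternatives were RLE and upper-quartile scaling, scaling to microglia or astrocyte markers, limma-voom (limma 3.58.1) with quality weights, DESeq2 1.42.0, no filter, a stricter filter (mean of 5 CPM), a threshold of 0.01, 1 fit of 12 libraries for genotypes, and leaving out each library. Fits were tested on simulated data.

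Exonic lengths and coordinates came from GENCODE annotation of GRCm38, and promoters from RefSeq. The kappaB-like motif replaced a longer form that had been searched first, also without a match in a member's window. The members and lists were chosen with earlier results of these data known. All members were named. From the pathway lists, up to 3 genes per direction with the lowest p past the threshold were named in a fraction comparison. In the other comparisons, 2 per list with the lowest p were named. The rule asked for a mean of at least 5 CPM over the 12 libraries. The few genes given from under that mean are marked as such. Pattern distances used log2(CPM + 0.5) and the 3 nearest genes. The listed genes Tnfsf4, Cd40lg, Cd70, Tnfsf15 and Ccl20 were not analysed here. Remaining marker lists, oligodendrocyte precursor and lymphocyte, had immune genotype medians of 0.088 and 0.12, oligodendrocyte 0.30 and astrocyte 0.34, none with a gene past the threshold. The neutrophil marker Camp was at 0 in all heterozygous astrocyte libraries, and the lymphocyte markers Ms4a1 and Klrb1c were at 0 in all knockout ones.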

Additional observations from a re-analysis of the deposited data

How the results depend on the processing

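Over 22 alternative settings, 1897 values of 36 genes were recomputed and 1817 kept their direction and side of the threshold. The setting of 0.01 reused the main fits, so no direction could change there. In the genotype comparisons and the difference of effects no gene passed in the main fits. There, keeping the side of the threshold meant only that a gene stayed uncalled. No setting with edgeR or limma-voom called a gene in a genotype comparison, but DESeq2 called 446 for immune libraries, 1 for astrocyte libraries and 3 for the difference of effects, no member among them. The 1 member called higher in heterozygous astrocytes became 2 with limma-voom, 0 at an adjusted p of 0.01, and 0 to 2 as each library was left out. Scaling to microglia markers turned immune fold changes to 0.071 (Tnfrsf1a), 0.091 (Tnfrsf1b), 0.089 (Fas), 0.31 (Tnfrsf12a), 0.023 (Ltbr), 0.074 (Traf1), 0.063 (Birc3), 0.47 (Cd40), 0.15 (Tnfsf12) and 0.099 (Bcl3), and Cd40 was 0.00013 by DESeq2 and 0.40 by limma-voom. In astrocytes Traf1 was -0.11 by limma-voom and, scaled to astrocyte markers, -0.049, with Tnfrsf1a at -0.031; Ltbr was 0.0025 with no filter on low counts. The difference between the fractions of heterozygotes was 0.093 for Ltbr by limma-voom. The difference of genotype effects was -0.30 (Tnf) and -0.15 (Tnfrsf1b) by limma-voom, and -0.0037 and -0.025 with the stricter filter. As single libraries were left out, values that changed sign ran over -0.65 to 0.40 (Cd40) and -0.46 to 0.13 (Tnfrsf12a) in the immune fraction, -0.27 to 0.36 (Traf1), -0.11 to 0.10 (Ltbr), -0.063 to 0.081 (Tnfrsf1a) and -0.14 to 0.31 (Tnfrsf12a) in astrocytes, -0.14 to 0.11 (Ltbr) between the fractions of heterozygotes, and -0.32 to 0.84 (Tnf), -0.16 to 0.33 (Tnfrsf1b) and -0.96 to 0.11 (Cd40) in the difference of effects. The cause was not tested. Leaving out 1 library left a group with 2 libraries. No paired analysis was possible because the groups compared share no replicate numbers in the labels. Neighbouring column numbers, which alternate between the fractions, were not taken as pairs, since no label used here ties them to 1 animal. Cd40, with 8 to 52 reads per library, is limited by depth.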
